A study of Mus musculus with 30 samples.

Results

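The transcripts described here are those of 47 genes that act in mitosis and chromosome segregation, chosen by name. Of these, 45 were found among the 39676 gene identifiers counted in bulk RNA-seq of 30 whole mouse tumors, and all 45 reached the mean of 10 counts per tumor that was required of the 15926 genes tested. Incenp, the scaffold of the chromosomal passenger complex, and Kif11, a kinesin that pushes the spindle poles apart, were not analysed here. The tumors had grown for 8 days under the skin of C57BL/6 female mice, which the study used as young adults, after inoculation of B16-F10 melanoma cells. There were 10 tumors of each of 3 types. B16-GFP tumors came from cells with a retroviral vector for GFP alone, and B16-IFNA4 and B16-IFNA9 tumors from cells in which the same vector also carried mouse IFNα4 or IFNα9, 2 subtypes of type I interferon (IFN-I). All 3 lines also carried herpes simplex virus glycoprotein B with CFP, and luciferase with puromycin resistance, and were sorted for GFP and CFP and selected in puromycin. Each type thus stood for 1 transduced line, in which the tumor cells made the interferon from a viral promoter (the MSCV LTR), and the host cells of the mouse were part of every sample.

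The interferon transcripts matched the labels. Ifna4 had 81 to 188 counts in every B16-IFNA4 tumor and Ifna9 had 55 to 148 counts in every B16-IFNA9 tumor, and both had 0 counts in all tumors of the other types. Total counts ran from 14598517 to 19788383 per tumor. Of 12 melanocyte markers 8 were found, all 8 with counts in each type, and the other 4 were not analysed here. Levels are given as CPM, a gene's counts relative to the library total, scaled between libraries by TMM, and differences as log2 fold changes (log2 FC) with their standard error (SE). Unless another fit is named, adjusted p refers to edgeR's quasi-likelihood test in 1 fit of the 30 tumors, with Benjamini-Hochberg adjustment over the 15926 genes, and a gene was called higher or lower when it was under 0.05.

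In mitosis, cyclin-dependent kinase together with Aurora and Polo kinases drives the cell out of G2, condensin and topoisomerase II compact the chromosomes, and kinetochores built on the centromere attach them to spindle microtubules. The spindle checkpoint holds the anaphase-promoting complex inactive until every kinetochore is attached, after which the sister chromatids part and the midzone organises cytokinesis. Most of these genes are transcribed in G2 and M through the MuvB complex with B-MYB and FOXM1, which reads a short element called CHR, often next to CCAAT boxes bound by NF-Y. Bulk levels of such genes rise with the number of cycling cells in a tissue, and IFN-I is known to slow the cycle of many cell types.

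Promoter sequence was looked at first, because a shared promoter layout is the textbook hallmark of these genes. RefSeq promoters on GRCm38.p6, 250 bases before to 50 bases after the start, were at hand for 39 of the 45 genes and for 27025 gene symbols in all. A CHR (TTTGAA or TTCGAA, either strand) was in 29 of the 39 (74.4%) and in 21.7% of all symbols. A CCAAT box (CCAAT, either strand) was also in 29 of 39 (74.4%), against 41.1% of all symbols, and 26 of 39 (66.7%) held both, against 8.61%. An E2F-type site (TTCGCGC or TTGGCGC, either strand), typical of genes of the G1 to S transition, was in 6 of 39 (15.4%), against 4.47% of all. The promoters of 32 DNA replication genes held a CHR in 18.8%, CHR and CCAAT together in 15.6% and an E2F-type site in 37.5%. Such matches are letters in a window and not shown binding sites. Split by the calls in B16-IFNA9 tumors described further on, the CHR was in 19 of 28 promoters (67.9%) of genes that fell there and in 10 of 11 (90.9%) of genes that were not called. This split was not tested. It also depended on the fit, since with the length and GC offsets described further on only Mki67 was not called.

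The RefSeq start did not always coincide with the start of the GENCODE M21 gene model whose coordinates are given for each gene. It lay at the same base in 11 of the 39 genes, before the model in 12 and inside it in 16, so that some of the searched bases belong to transcribed sequence. Both motifs lay within the 120 bases before the RefSeq start in 7 of the 39 promoters, and 4 of these windows, with at most 30 bases inside the gene model, are printed to show the layout. They run 5′ to 3′ in the direction of the gene, with CHR and CCAAT letters (or their reverse complements TTCAAA and ATTGG) in capitals.
Cdc20 (chr4:118437344-118437463, minus strand): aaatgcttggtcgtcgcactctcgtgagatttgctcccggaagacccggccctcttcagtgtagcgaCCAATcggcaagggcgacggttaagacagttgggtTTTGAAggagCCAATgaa
Ckap2l (chr2:129297213-129297332, minus strand): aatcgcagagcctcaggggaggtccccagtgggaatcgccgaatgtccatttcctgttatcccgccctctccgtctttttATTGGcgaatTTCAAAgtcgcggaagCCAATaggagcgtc
Ect2 (chr3:27153879-27153998, minus strand): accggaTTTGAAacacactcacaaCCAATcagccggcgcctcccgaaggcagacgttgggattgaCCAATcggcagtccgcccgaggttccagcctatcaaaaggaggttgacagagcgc
Top2a (chr11:99024190-99024309, minus strand): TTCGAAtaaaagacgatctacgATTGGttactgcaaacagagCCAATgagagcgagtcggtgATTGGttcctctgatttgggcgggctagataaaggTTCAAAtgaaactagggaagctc
In Cdc20 the CHR began 18 bases before the start and lay between 2 CCAAT boxes at 53 and 8 bases, and the last 9 bases of the window were inside the gene model. Ckap2l had 1 CHR at 30 bases between 2 CCAAT boxes at 40 and 14 bases. In Ect2 the CHR lay upstream, at 114 bases, with CCAAT boxes at 96 and 55 bases. Top2a had 2 CHR, 1 at 23 bases and 1 at the upstream edge of the window, and 3 CCAAT boxes between them.

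All 45 genes fell in B16-IFNA4 tumors. Against B16-GFP tumors, 45 of 45 were called lower, while 34.1% of all genes tested were called lower and 31.3% higher. The median log2 FC was −1.36, a level 2.57-fold lower, with a range from −1.89 for Plk1 to −0.62 for Smc4, whereas the median over all genes was 0.01. In bulk tumors, fewer cells of a type and less RNA per cell cannot be told apart. For 42 of the 45, every B16-IFNA4 tumor lay below every B16-GFP tumor, which held for 10.0% of all genes. The groups overlapped for Cenpi, Smc4 and Aspm. When a fold change beyond 1.5 was required, 39 stayed called, and Anln, Aspm, Cenpi, Mki67, Smc4 and Ttk did not.

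B16-IFNA9 tumors took a middle position. Against B16-GFP tumors 33 of 45 were called lower and none higher, with 28.9% of all genes called lower and 26.9% higher (4595 and 4281 genes, or 3608 and 5052 when scaled by library totals), and the median log2 FC was −0.57, a level 1.48-fold lower. The values ran from −1.29 for Cdc20 to 0.05 for Mki67, and single tumors of the 2 types did not overlap for Cdc20 and Mybl2 only, 2 of 45, against 3.35% of all genes. When a fold change beyond 1.5 was required, 25 of the 33 genes lost their call. Against B16-IFNA4 tumors 41 of 45 were called higher in B16-IFNA9 tumors, with 10.5% of all genes called higher and 7.25% lower, at a median log2 FC of 0.80 or 1.74-fold, and 12 did not overlap between single tumors, against 2.08% of all genes. Both comparisons with B16-GFP share those 10 tumors and all 3 share 1 fit, so the counts are set side by side and not tested against each other. Group medians were in the order B16-GFP, B16-IFNA9, B16-IFNA4 for 41 genes, and for the other 4 the B16-IFNA9 median was at or above that of B16-GFP.

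The calls fell into 3 patterns. For 29 genes all steps were called, lower in both interferon types than in B16-GFP and higher in B16-IFNA9 than in B16-IFNA4. For 12 genes B16-IFNA9 tumors were not called against B16-GFP tumors but were above B16-IFNA4 tumors, namely Aspm, Cenpe, Cenpf, Ckap2l, Hmmr, Kif15, Kif23, Mki67, Ncapg, Smc2, Smc4 and Ttk. This pattern depended on the fit, since with the length and GC offsets described further on all of these but Mki67 were called lower in B16-IFNA9 than in B16-GFP tumors (for example Ncapg at −0.73 and Kif23 at −0.42). For Anln, Bub3, Cdc20 and Cenpi the 2 interferon types were both lower than B16-GFP and were not called against each other. Of these, Bub3, Cdc20 and Cenpi were called higher in B16-IFNA9 tumors when scaled by library totals (adjusted p = 0.0219, 0.0321 and 0.0304) or when only the 20 tumors compared were fitted, and on leaving out 1 tumor in 1, 6 and 4 of 30 cases. Cdc20 was also called higher with filterByExpr and with length and GC offsets (log2 FC 0.53, adjusted p = 0.0176). The plot of log2 FC by role shows the 3 comparisons side by side.

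**Figure D1:**
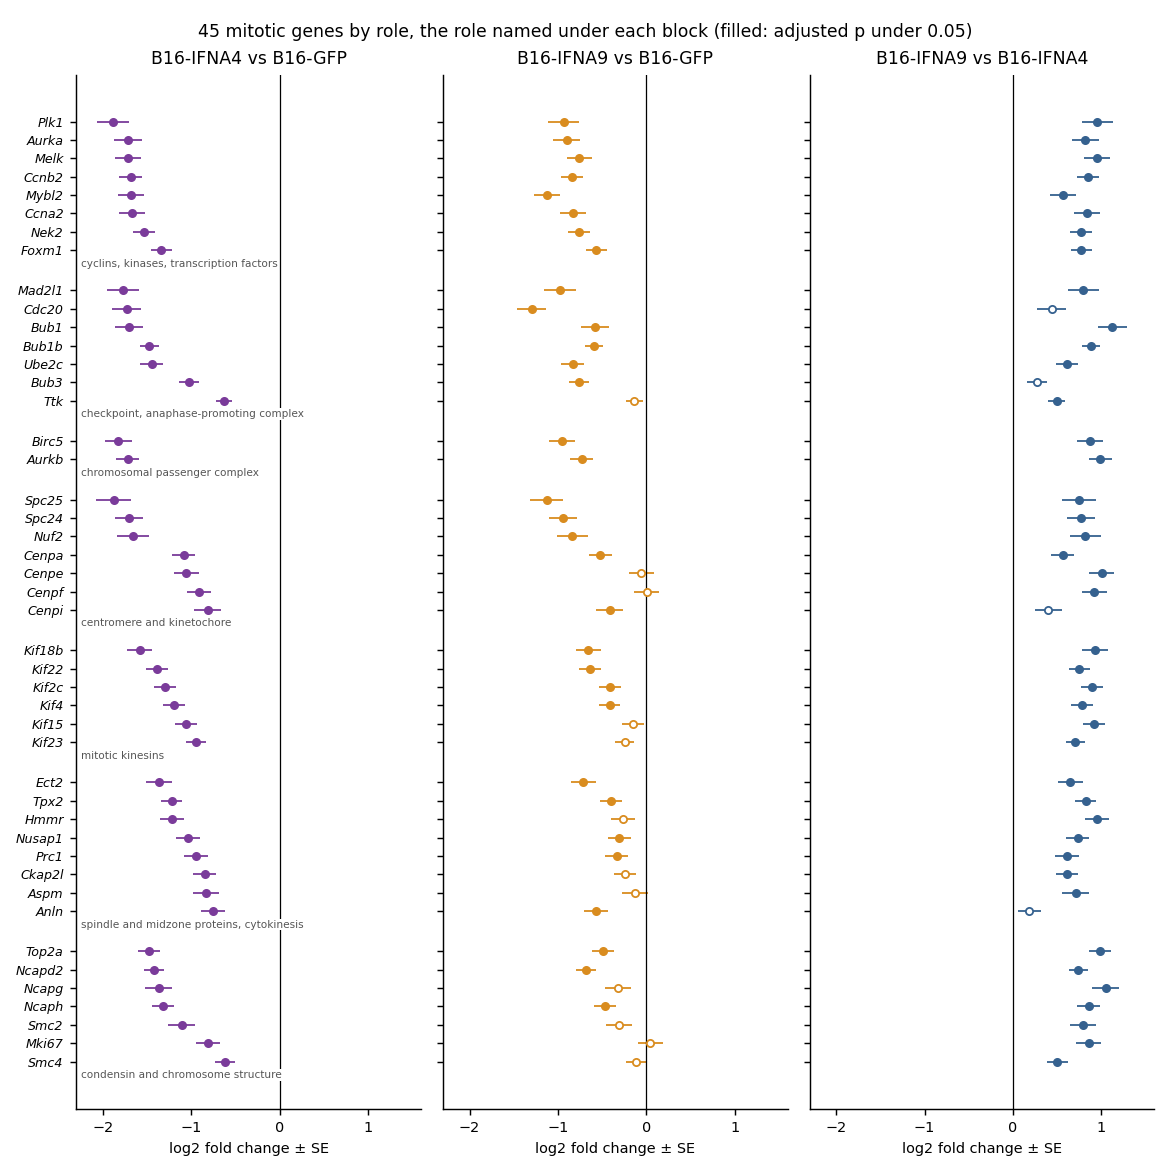
Log2 fold change (horizontal axis) ± SE for each of 45 mitotic genes, in blocks by role, in B16-IFNA4 vs B16-GFP (left), B16-IFNA9 vs B16-GFP (middle) and B16-IFNA9 vs B16-IFNA4 tumors (right), 10 tumors per type. Filled points had an adjusted p under 0.05 (45, 33 and 41 genes), and open points did not.

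Of the cyclins, mitotic kinases and their transcription factors, all 8 were called in each of the 3 comparisons, with median log2 FC of −1.68, −0.83 and 0.83. Plk1 (ENSMUSG00000030867.7, chr7:122159439-122169873, plus strand, GRCm38), the Polo kinase of centrosome maturation and mitotic entry, ranged from 24.4 to 107 CPM in B16-GFP tumors (median 48.6), from 10.6 to 18.6 in B16-IFNA4 tumors (median 13.2) and from 19.4 to 39.4 in B16-IFNA9 tumors (median 26.3). It was 3.70-fold lower in B16-IFNA4 than in B16-GFP tumors (log2 FC −1.89, SE 0.18, adjusted p = 3.33e-10) and 1.91-fold lower in B16-IFNA9 tumors (log2 FC −0.93, SE 0.18, adjusted p = 5.76e-05). Every B16-IFNA4 tumor was below every tumor of both other types, while B16-GFP and B16-IFNA9 tumors overlapped. Aurka (chr2:172356190-172370535), the Aurora kinase of the spindle poles, had medians of 59.3, 18.2 and 31.4 CPM in B16-GFP, B16-IFNA4 and B16-IFNA9 tumors, with ranges of 32.0 to 113, 15.1 to 25.2 and 22.4 to 52.0. Its log2 FC were −1.72 (SE 0.16, adjusted p = 1.13e-10) in B16-IFNA4 and −0.90 (SE 0.15, adjusted p = 1.54e-05) in B16-IFNA9 tumors.

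Both transcription factors of the group fell as well. Mybl2 (chr2:163054687-163084688), which encodes B-MYB, had 18.2 to 45.7 CPM in B16-GFP tumors (median 27.7), 6.98 to 11.5 in B16-IFNA4 tumors (median 8.65) and 10.2 to 17.0 in B16-IFNA9 tumors (median 12.9). Its log2 FC were −1.68 (SE 0.15, adjusted p = 7.32e-11) and −1.12 (SE 0.15, adjusted p = 3.22e-07), and B16-GFP tumors stood clear of both interferon types. Of the 50-base stretches of Mybl2 exons, 19.3% also occur in the pseudogene Gm3320, so that part of its reads could have been split. Foxm1 (chr6:128362967-128376146) ranged from 56.1 to 114 CPM in B16-GFP tumors (median 85.0), from 29.8 to 41.8 in B16-IFNA4 tumors (median 31.3) and from 41.5 to 91.5 in B16-IFNA9 tumors (median 53.4). The log2 FC were −1.34 (SE 0.12, adjusted p = 1.06e-10) and −0.56 (SE 0.12, adjusted p = 0.000226), and the interferon types overlapped only in that the highest B16-IFNA4 tumor lay just above the lowest B16-IFNA9 tumor. The cyclins Ccna2 and Ccnb2 and the kinases Melk and Nek2 had log2 FC from −1.71 to −1.53 in B16-IFNA4 and from −0.84 to −0.76 in B16-IFNA9 tumors.

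**Figure D2:**
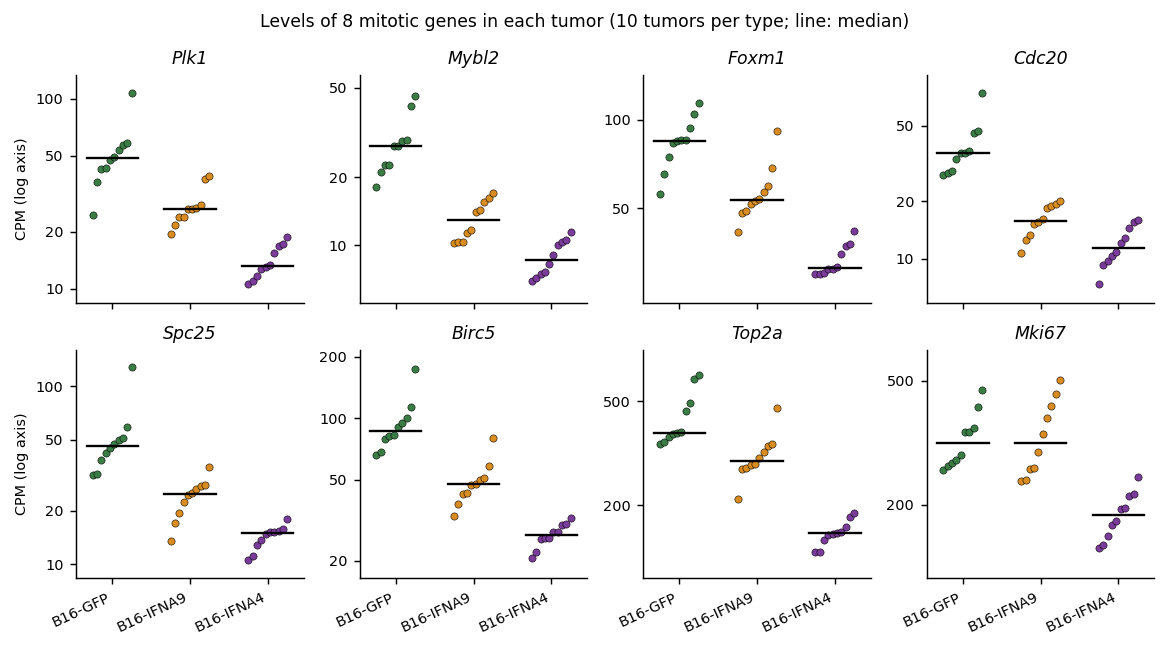
CPM of 8 genes (vertical log axes) in each tumor, 10 points per type sorted by level, with the group median as a line, for B16-GFP, B16-IFNA9 and B16-IFNA4. The B16-IFNA4 tumors were below all B16-GFP tumors in each of the 8 panels, and B16-IFNA9 medians lay between the other types except for Mki67.

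Of the spindle checkpoint genes and the partners of the anaphase-promoting complex, 7 of 7 were lower in B16-IFNA4 and 6 of 7 in B16-IFNA9 tumors (median log2 FC −1.47 and −0.76). Mad2l1 (chr6:66535390-66547220), the checkpoint protein that captures CDC20, ranged from 60.8 to 230.07 CPM in B16-GFP tumors (median 88.0), from 23.6 to 38.3 in B16-IFNA4 tumors (median 29.1) and from 38.6 to 80.5 in B16-IFNA9 tumors (median 48.8). Its log2 FC were −1.77 (SE 0.18, adjusted p = 1.2e-09) and −0.98 (SE 0.18, adjusted p = 3.48e-05), and the 2 interferon types did not overlap. Cdc20 (chr4:118432901-118437352), the activator of the anaphase-promoting complex that the checkpoint blocks, had 27.5 to 74.4 CPM in B16-GFP tumors (median 35.9), 7.34 to 16.01 in B16-IFNA4 tumors (median 11.4) and 10.7 to 20.2 in B16-IFNA9 tumors (median 15.8). It fell in both, with log2 FC of −1.73 (SE 0.17, adjusted p = 3.77e-10) and −1.29 (SE 0.16, adjusted p = 1.77e-07), and the B16-IFNA9 fall was the largest among the 45 genes. The 2 interferon types were 0.44 apart in Cdc20 (95% interval 0.10 to 0.77, adjusted p = 0.0625), which was not called. With length and GC offsets this difference was called, at 0.53 (adjusted p = 0.0176). For Cdc20, 10.4% of 50-base stretches are shared with the pseudogene Gm7856.

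Of the other checkpoint genes, Bub1, a kinase of unattached kinetochores, had medians of 89.9, 30.3 and 65.3 CPM in B16-GFP, B16-IFNA4 and B16-IFNA9 tumors, with ranges of 72.1 to 164, 25.9 to 38.1 and 36.8 to 126. It was 2.18-fold higher in B16-IFNA9 than in B16-IFNA4 tumors (log2 FC 1.13, SE 0.16, adjusted p = 9.64e-06), the widest gap between those types among the 45. Bub3, which anchors BUB1 and BUBR1 at kinetochores, had ranges of 109.97 to 274, 65.2 to 80.1 and 77.1 to 113 CPM in the same order, log2 FC of −1.03 and −0.76 against B16-GFP tumors and a difference of 0.27 between the interferon types (95% interval 0.04 to 0.50, adjusted p = 0.0998). Ttk, which encodes the checkpoint kinase MPS1, had the smallest fall of the group in B16-IFNA4 tumors, at −0.63 (SE 0.09, adjusted p = 1.18e-06), and had a log2 FC of −0.13 in B16-IFNA9 tumors (95% interval −0.33 to 0.06, adjusted p = 0.22). Bub1b, which encodes the checkpoint protein BUBR1, and Ube2c, the ubiquitin-conjugating enzyme of the anaphase-promoting complex, were called in all 3 comparisons, at −1.47 and −1.45 in B16-IFNA4 tumors. For Bub1b the tumors lay between 62.2 and 104 CPM in B16-GFP, between 25.6 and 31.7 in B16-IFNA4 and between 39.2 and 84.9 in B16-IFNA9, with a clear space between the interferon types. Exons of Ube2c overlap the muscle gene Tnnc2 on the opposite strand over 22.8% of their length, and the summed skeletal muscle markers ranged from 1946 to 20434 CPM over the tumors.

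The chromosomal passenger complex corrects faulty attachments and later moves to the midzone. Both members tested fell, and in both all B16-IFNA9 tumors lay above all B16-IFNA4 tumors. Birc5 (chr11:117849251-117855743), which encodes survivin, had 65.8 to 174 CPM in B16-GFP tumors (median 86.6), 20.6 to 32.4 in B16-IFNA4 tumors (median 26.7) and 32.96 to 79.6 in B16-IFNA9 tumors (median 47.5). The log2 FC were −1.82 (SE 0.15, adjusted p = 1.43e-11) in B16-IFNA4 and −0.95 (SE 0.15, adjusted p = 3.75e-06) in B16-IFNA9 tumors. Aurkb (chr11:69045647-69051664), the kinase of the complex, had medians of 54.9, 17.3 and 32.8 CPM in B16-GFP, B16-IFNA4 and B16-IFNA9 tumors and ranges of 38.1 to 87.1, 13.4 to 19.7 and 20.3 to 44.5. It was 3.29-fold lower in B16-IFNA4 (log2 FC −1.72, SE 0.13, adjusted p = 2.6e-12) and 1.66-fold lower in B16-IFNA9 tumors (log2 FC −0.73, SE 0.13, adjusted p = 2.16e-05).

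Of 7 centromere and kinetochore genes, 7 were lower in B16-IFNA4 tumors (median log2 FC −1.09) and 5 in B16-IFNA9 tumors (median −0.52). The NDC80 complex, which grips the microtubule, was represented by Spc25, Spc24 and Nuf2. Spc25 (chr2:69193895-69206194) had 31.8 to 128 CPM in B16-GFP tumors (median 46.2), 10.5 to 17.9 in B16-IFNA4 tumors (median 15.04) and 13.5 to 35.1 in B16-IFNA9 tumors (median 24.8). Its log2 FC were −1.88 (SE 0.20, adjusted p = 2.07e-09) and −1.13 (SE 0.19, adjusted p = 1.6e-05). Spc24 (chr9:21755442-21760303) was among the least abundant, with medians of 17.2, 5.92 and 9.96 CPM in B16-GFP, B16-IFNA4 and B16-IFNA9 tumors and ranges of 11.2 to 34.1, 4.21 to 7.14 and 7.09 to 13.5, at log2 FC of −1.71 (SE 0.16, adjusted p = 2.54e-10) and −0.94 (SE 0.16, adjusted p = 1.3e-05). Nuf2 was lower by similar amounts, at −1.66 and −0.84.

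The large kinetochore proteins CENP-E, a motor that carries chromosomes to the spindle equator, and CENP-F were not called in B16-IFNA9 against B16-GFP tumors. Cenpf had a median of 68.1 CPM in B16-GFP tumors (51.6 to 102), 36.4 in B16-IFNA4 tumors (28.1 to 45.6) and 69.5 in B16-IFNA9 tumors (43.9 to 114). In B16-IFNA4 tumors it fell by 0.91 on the log2 scale (SE 0.14, adjusted p = 2.01e-06), whereas the B16-IFNA9 difference was 0.01 (95% interval −0.28 to 0.29, adjusted p = 0.977). Cenpe had medians of 56.8, 31.3 and 59.5 CPM in the same order (ranges 44.9 to 104.8, 23.99 to 38.9 and 43.0 to 95.7), with log2 FC of −1.06 in B16-IFNA4 and −0.06 in B16-IFNA9 tumors (95% interval −0.34 to 0.23). With length and GC offsets both were called lower in B16-IFNA9 than in B16-GFP tumors, Cenpf at −0.32 (adjusted p = 0.0152) and Cenpe at −0.28 (adjusted p = 0.0312). Cenpa, the centromeric histone, fell in both types (−1.09 and −0.52), as did Cenpi (−0.81 and −0.42), and Cenpi was not called between them. The B16-IFNA9 fall of Cenpi (adjusted p = 0.0203) was not called when scaled by library totals. It was also lost in 1 of the 30 fits that left out 1 tumor.

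All 6 mitotic kinesins tested were lower in B16-IFNA4 and higher in B16-IFNA9 than in B16-IFNA4 tumors, and 4 were lower in B16-IFNA9 than in B16-GFP tumors. Kif18b (chr11:102905529-102925124), which trims microtubule plus ends, had 20.8 to 48.9 CPM in B16-GFP tumors (median 31.3), 7.89 to 14.4 in B16-IFNA4 tumors (median 10.3) and 15.99 to 27.3 in B16-IFNA9 tumors (median 19.1). The log2 FC were −1.59 (SE 0.15, adjusted p = 1.56e-10) and −0.66 (SE 0.14, adjusted p = 0.000298), and all B16-IFNA9 tumors were above all B16-IFNA4 tumors. Kif22 (chr7:127027729-127042471), a motor that rides on chromosome arms, had medians of 41.0, 16.9 and 28.6 CPM in B16-GFP, B16-IFNA4 and B16-IFNA9 tumors with ranges of 32.7 to 75.0, 14.5 to 20.6 and 22.9 to 40.0. It was −1.39 (SE 0.12, adjusted p = 5.92e-11) in B16-IFNA4 and −0.64 (SE 0.12, adjusted p = 6.03e-05) in B16-IFNA9 tumors. Kif2c and Kif4 were lower in both, while Kif15 (−0.15, 95% interval −0.40 to 0.10) and Kif23 (−0.24, 95% interval −0.46 to −0.02, adjusted p = 0.0564) were not called in B16-IFNA9 tumors.

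Of 8 genes of the spindle, its midzone and cytokinesis, 8 were lower in B16-IFNA4 and 5 in B16-IFNA9 tumors (median log2 FC −0.99 and −0.32). Ect2 (chr3:27097222-27153878), which activates RhoA for the cleavage furrow, had 65.7 to 151 CPM in B16-GFP tumors (median 83.0), 28.5 to 46.3 in B16-IFNA4 tumors (median 33.5) and 36.3 to 92.3 in B16-IFNA9 tumors (median 53.9), with log2 FC of −1.36 (SE 0.15, adjusted p = 3.22e-09) and −0.71 (SE 0.14, adjusted p = 0.000133). Tpx2 (chr2:152847964-152895321), which targets Aurora A to microtubules, had medians of 123, 53.5 and 92.3 CPM in B16-GFP, B16-IFNA4 and B16-IFNA9 tumors with ranges of 97.7 to 164, 42.1 to 64.8 and 68.1 to 159, with log2 FC of −1.22 (SE 0.12, adjusted p = 7.27e-10) and −0.40 (SE 0.12, adjusted p = 0.0057). In both genes B16-GFP tumors stood above all B16-IFNA4 tumors. For Anln, which encodes anillin, a scaffold of the contractile ring, medians were 127, 80.9 and 87.0 CPM in B16-GFP, B16-IFNA4 and B16-IFNA9 tumors. Its log2 FC against B16-GFP in B16-IFNA4 (−0.75) and B16-IFNA9 tumors (−0.57) were both called, and the interferon types differed by 0.18 (95% interval −0.09 to 0.45, adjusted p = 0.369). Nusap1 and Prc1 were called in B16-IFNA9 tumors near the threshold (adjusted p = 0.0484 and 0.0326), and leaving out 1 tumor moved Nusap1 past it in 21 of 30 cases and Prc1 in 8. Both lost the call when scaled by library totals, with no filter, or when only the 20 tumors compared were fitted. Nusap1 also lost it in DESeq2, with DESeq2's size factors and with filterByExpr. Aspm, Ckap2l and Hmmr were lower in B16-IFNA4 tumors and not called in B16-IFNA9 tumors.

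Condensin and chromosome structure genes held the most abundant transcripts. Per kilobase of joined exons and averaged over the 30 tumors, Top2a (33.5 CPM per kb), Smc4 (33.2) and Mki67 (28.2) led the 45 genes, and Cenpi (2.04) came last. Top2a (chr11:98992943-99024189), topoisomerase II that disentangles sister chromatids, ranged from 343 to 628 CPM in B16-GFP tumors (median 378), from 132 to 187 in B16-IFNA4 tumors (median 156) and from 212 to 471 in B16-IFNA9 tumors (median 295). It fell 2.78-fold in B16-IFNA4 (log2 FC −1.48, SE 0.12, adjusted p = 1.89e-11) and 1.41-fold in B16-IFNA9 tumors (log2 FC −0.49, SE 0.12, adjusted p = 0.00107), and the interferon types did not overlap. Ncapd2 (chr6:125168007-125191701), a condensin I subunit, had medians of 156, 61.0 and 95.3 CPM in B16-GFP, B16-IFNA4 and B16-IFNA9 tumors with ranges of 123 to 235, 49.2 to 72.7 and 81.6 to 149. Its log2 FC were −1.42 (SE 0.11, adjusted p = 6.21e-12) and −0.68 (SE 0.11, adjusted p = 8.59e-06). Of the other condensin subunits, Ncaph was lower in both types, while Ncapg, Smc2 and Smc4 were lower in B16-IFNA4 tumors (−1.37, −1.11 and −0.62) and not called in B16-IFNA9 tumors (−0.32, −0.31 and −0.11).

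Mki67 (ENSMUSG00000031004.8, chr7:135689784-135716361, minus strand), which encodes the proliferation marker Ki-67, a protein that coats mitotic chromosomes, stood apart from Top2a in B16-IFNA9 tumors. It ranged from 257 to 466 CPM in B16-GFP tumors (median 316), from 146 to 246 in B16-IFNA4 tumors (median 186) and from 238 to 502 in B16-IFNA9 tumors (median 316). In B16-IFNA4 tumors it was 1.75-fold lower (log2 FC −0.81, SE 0.14, adjusted p = 1e-05). Its B16-IFNA9 difference was 0.05 (95% interval −0.24 to 0.33, adjusted p = 0.793), and B16-IFNA9 tumors were 0.86 above B16-IFNA4 tumors (SE 0.14, adjusted p = 6.17e-05). With the length and GC offsets described further on, the B16-IFNA9 difference from B16-GFP tumors was −0.17 (adjusted p = 0.211), and Mki67 was the 1 gene of the 45 still not called. The B16-IFNA9 tumors thus spread over the whole range of the B16-GFP tumors for Mki67, while 33 of the other 44 genes were called lower.

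Between the interferon types, the 12 genes with the smallest adjusted p were Bub1b (8.46e-07), Top2a (1.49e-06), Aurkb (3.25e-06), Kif15, Cenpe, Kif2c, Bub1, Hmmr, Ncapg, Tpx2, Ccnb2 and Ncaph (up to 1.82e-05). Their log2 FC ran from 0.82 for Tpx2 to 1.13 for Bub1. Of these, Kif15, Cenpe, Hmmr and Ncapg were not called in B16-IFNA9 against B16-GFP tumors. Ncapg, a condensin I subunit, had medians of 47.5, 21.1 and 41.5 CPM in B16-GFP, B16-IFNA4 and B16-IFNA9 tumors with ranges of 42.0 to 92.3, 14.3 to 28.7 and 26.0 to 69.5. Hmmr, a hyaluronan receptor that also binds spindle microtubules, had medians of 59.1, 26.4 and 50.1 CPM with ranges of 45.9 to 95.1, 19.6 to 34.2 and 38.5 to 86.7. Kif15, a plus-end motor of the spindle, had medians of 39.6, 19.496 and 36.4 CPM with ranges of 33.1 to 61.4, 16.4 to 26.2 and 25.9 to 55.5. For Hmmr and Kif15 the B16-IFNA9 median lay within the B16-GFP range, whereas for Ncapg it lay just below the lowest B16-GFP tumor, and for Hmmr the B16-IFNA9 tumors were clear of B16-IFNA4 tumors. Kif2c, Ccnb2 and Ncaph, which fell in both interferon types, had B16-GFP medians of 30.7, 60.6 and 51.7 CPM, B16-IFNA4 medians of 13.2, 19.04 and 22.1, and B16-IFNA9 medians of 23.6, 34.0 and 39.9. A fold change beyond 1.5 between the interferon types was called for 4 of the 45 genes.

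Exon length went with the size of the differences. Across the 45 genes, Spearman's rho between log2 FC and joined exon length was 0.62 in B16-IFNA4 vs B16-GFP, 0.59 in B16-IFNA9 vs B16-GFP and −0.06 in B16-IFNA9 vs B16-IFNA4 tumors, with the long transcripts nearer to 0 in the first pair. The same measure was 0.18, 0.23 and 0.02 over 15905 genes, and with GC content it was −0.37, −0.45 and −0.06 over the 45. These are descriptions across genes that share the same libraries. Among the 15 shortest genes (1531 to 4275 bases) 14 were called in B16-IFNA9 vs B16-GFP tumors, among the middle 15 there were 11, and among the longest 15 (5860 to 15433 bases) there were 8, with median log2 FC of −0.83, −0.42 and −0.33. Mki67 (10061 bases) and Cenpf (15433 bases) were in the longest class. With length and GC offsets in the fit, an alternative chosen after seeing the data, 44 of 45 genes were called in B16-IFNA9 vs B16-GFP tumors at a median log2 FC of −0.72, Cenpf became −0.32 (adjusted p = 0.0152), and rho was still 0.39. The part of length and GC in these differences was not tested.

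**Figure D3:**
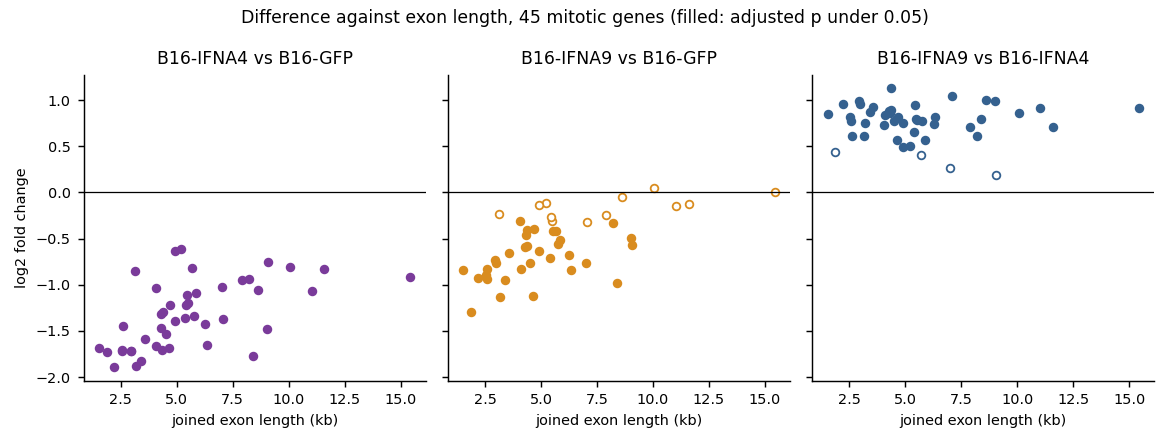
Log2 fold change (vertical axis) against joined exon length in kb (horizontal axis) for 45 mitotic genes in each comparison, filled where the adjusted p was under 0.05. In the comparisons with B16-GFP the longer genes lay nearer to 0 (rho 0.62 and 0.59), and in B16-IFNA9 vs B16-IFNA4 no such slope was seen (rho −0.06).

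Single tumors differed in their level across the genes, least so in B16-IFNA4. The mean log2 CPM over the 45 genes ran from 5.68 to 6.66 in B16-GFP tumors (SD 0.30), from 4.53 to 4.93 in B16-IFNA4 tumors (SD 0.13) and from 5.01 to 6.08 in B16-IFNA9 tumors (SD 0.28). A first principal component carried 73.8%, 49.7% and 78.0% of the variance within these types, and the median SD per gene was 0.34, 0.22 and 0.32, against 0.41, 0.25 and 0.28 over all genes. B16-GFP tumor 7 was the highest of its type in 32 of 45 genes and tumor 10 in 12, while B16-IFNA9 tumor 10 was the highest of its type in 40 and tumor 8 the lowest in 38. In B16-IFNA4 no tumor stood out in this way, as tumor 3 was the highest in 16 genes and the lowest in 5, and tumor 8 the lowest in 18. Leaving out any tumor can only keep or raise the number of genes without overlap. B16-IFNA9 tumors 10 and 8 were picked for their extreme levels, so the rises on leaving them out are no separate evidence. Without B16-IFNA9 tumor 10, 13 genes instead of 2 did not overlap between B16-IFNA9 and B16-GFP tumors, and 38 instead of 33 were called lower. Leaving out B16-IFNA9 tumor 8 raised the genes that did not overlap between the interferon types from 12 to 31. Without B16-GFP tumor 1, 4 genes did not overlap between B16-IFNA9 and B16-GFP tumors, and without B16-GFP tumor 7 the genes called lower in B16-IFNA9 tumors were 30.

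**Figure D4:**
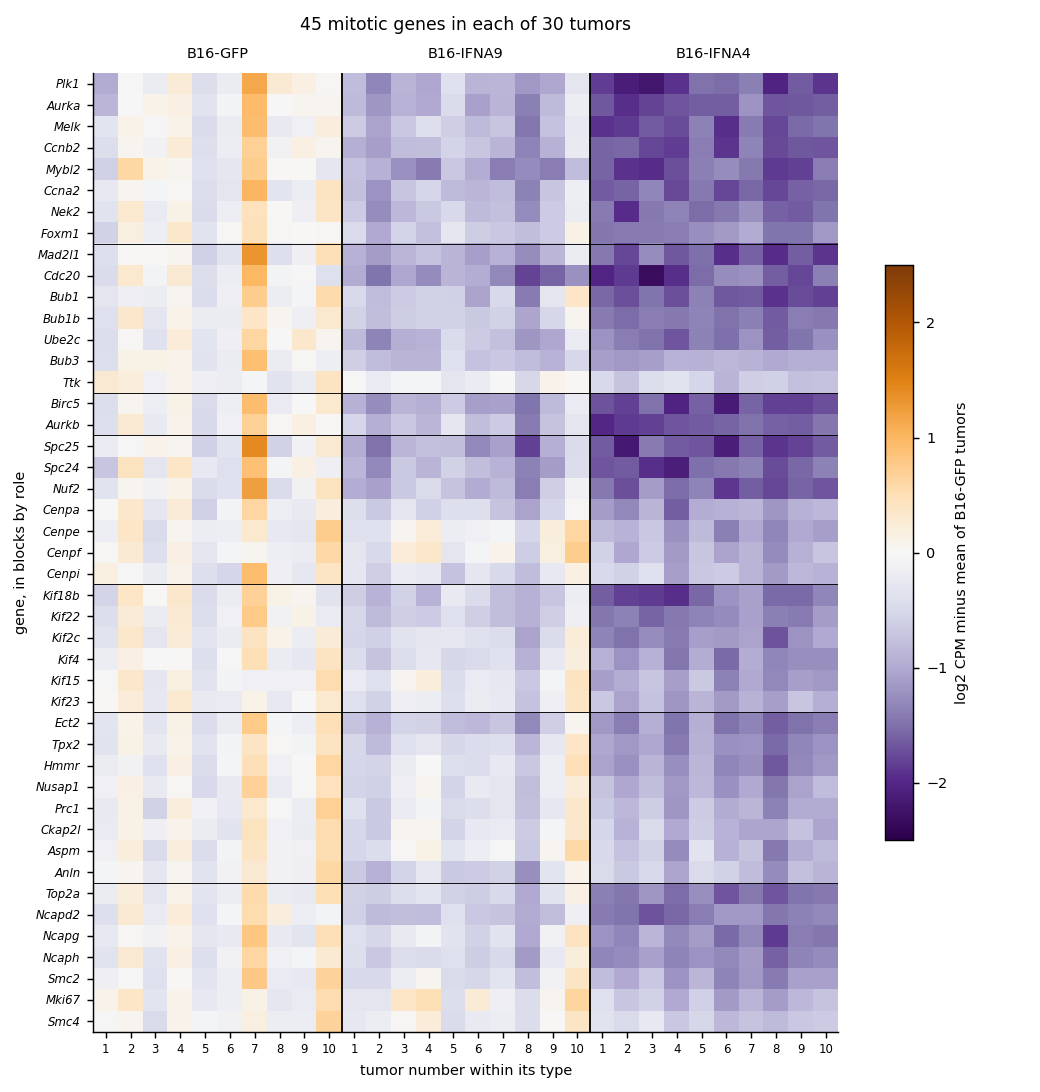
Log2 CPM minus the mean of the B16-GFP tumors (colour scale) for 45 mitotic genes (rows, in blocks by role) in each of the 30 tumors (columns, numbered within type). B16-GFP tumor 7 and B16-IFNA9 tumor 10 stood high across most rows, B16-IFNA9 tumor 8 low, and the B16-IFNA4 tumors were below the B16-GFP mean in all genes as a group.

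Of the cell type marker lists, only the melanocyte sum had group medians in the order of the mitotic genes. The summed CPM of the 8 melanocyte markers found had a median of 9915 in B16-GFP (7911 to 25784), 3324 in B16-IFNA4 (2416 to 3937) and 4967 in B16-IFNA9 tumors (3656 to 9572), and 8 of 8 were called lower in both interferon types (median log2 FC −1.73 and −1.06), with 6 of 8 higher in B16-IFNA9 than in B16-IFNA4 tumors. The summed level of the 45 mitotic genes was 3489.9 (3011 to 5793), 1654 (1394 to 1888) and 2688 (1987 to 4235) CPM in the same order. Expressed as a percentage of the melanocyte sum, the mitotic genes came to 34.9% (22.5% to 43.1%) in B16-GFP, 51.2% (42.1% to 68.6%) in B16-IFNA4 and 49.8% (43.8% to 73.1%) in B16-IFNA9 tumors. Leukocyte markers went the other way, from a median of 748 CPM (227 to 1074) in B16-GFP to 1753 (1191 to 2337) in B16-IFNA4 and 1586 (953 to 1797) in B16-IFNA9 tumors, with 16 and 14 of 17 tested called higher and 19 of 20 found. Over all genes, 34.1% were lower and 31.3% higher in B16-IFNA4, and 28.9% lower and 26.9% higher in B16-IFNA9 tumors. Between the interferon types, 10.5% of all genes were higher in B16-IFNA9 tumors. B16-GFP tumor 7, the highest for most mitotic genes, had the highest melanocyte and the lowest leukocyte, fibroblast, endothelial and keratinocyte sums of its type, and B16-IFNA9 tumor 10 had the highest melanocyte and the lowest keratinocyte sum of its type. B16-IFNA9 tumor 8, the lowest for most mitotic genes, had the highest leukocyte and keratinocyte sums of its type. The lowest B16-IFNA9 melanocyte sum was that of tumor 6 (3656 CPM). Among B16-IFNA4 tumors, tumor 8 had the lowest mitotic and melanocyte sums, but also the lowest leukocyte and endothelial sums. B16-IFNA4 tumor 1 had the highest leukocyte sum of its type and a mean log2 CPM of the mitotic genes above the type's median (4.84 against 4.76).

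Counts for the other host markers are read against 31.3% higher and 34.1% lower of all genes in B16-IFNA4 and 26.9% and 28.9% in B16-IFNA9 tumors. Of 7 keratinocyte markers, 5 were higher in B16-IFNA4 and 3 in B16-IFNA9 tumors (median sums 4689.9, 7535 and 6383 CPM in B16-GFP, B16-IFNA4 and B16-IFNA9), of 7 endothelial markers 5 were lower in each and 1 was higher in B16-IFNA4 tumors, and of 5 erythroid markers tested 5 were lower in each. Fibroblast sums had close medians (9338, 9939.7 and 10259.7 CPM), with 4 of 8 markers higher and 1 lower in B16-IFNA4 and 2 higher and 1 lower in B16-IFNA9 tumors, the latter no more than among all genes. Skeletal muscle sums ranged from 4146 to 20434 in B16-GFP, 4871 to 17649 in B16-IFNA4 and 1946 to 15141 CPM in B16-IFNA9 tumors, and 0 of 9 muscle markers were called in B16-IFNA4 and 5 were lower in B16-IFNA9 tumors, and 8 of 9 were lower in B16-IFNA9 than in B16-IFNA4 tumors. No listed marker of these types was at 0 throughout a tumor type. The part of the cell makeup in the mitotic differences was not tested.

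Further genes of mitosis were taken from lists by structure. Of 29 further kinetochore and centromere genes 26 were lower in B16-IFNA4 and 18 in B16-IFNA9 tumors, with median log2 FC of −1.12 and −0.39, where 34.1% and 28.9% of all genes were lower. In B16-IFNA9 tumors 1 of the 29 was called higher, where 26.9% of all genes were. Cenpw, a histone-fold protein of the inner kinetochore, and Knstrn, a spindle and kinetochore adaptor, had the largest falls, at −1.99 (SE 0.23) and −1.80 (SE 0.16) in B16-IFNA4 and −1.31 and −0.86 in B16-IFNA9 tumors. Of 27 further spindle, centrosome and cytokinesis genes 23 and 11 were lower and 2 were higher in both types, with median log2 FC of −0.98 and −0.13. The largest falls were those of Depdc1b (−1.99, SE 0.18) and Depdc1a (−1.71, SE 0.18) in B16-IFNA4 tumors. The 2 higher ones, named here after their values were seen, were Sass6 (0.42 and 0.45) and Cenpj (0.51 and 0.95), which build the centriole. Between the interferon types, 23 of the 29 and 22 of the 27 were higher in B16-IFNA9 tumors and none lower.

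Of 16 further genes of mitotic entry and exit, 15 were lower in B16-IFNA4 and 11 in B16-IFNA9 tumors, with median log2 FC of −1.27 and −0.78, where 34.1% and 28.9% of all genes were lower. Cdk1, the kinase of mitotic entry, had medians of 195, 49.2 and 70.9 CPM in B16-GFP, B16-IFNA4 and B16-IFNA9 tumors with ranges of 150.3 to 508, 44.3 to 60.1 and 44.5 to 109. Its log2 FC of −2.12 (SE 0.18, adjusted p = 2.52e-11) and −1.57 (SE 0.18, adjusted p = 1.71e-08) went beyond those of all 45 genes, and B16-GFP tumors overlapped with neither interferon type. Cdca3, a trigger of mitotic entry, was −2.06 (SE 0.16) and −1.17 (SE 0.15). The gene that went against the list was Pttg1, which encodes securin, the inhibitor of separase, and it is named after its values were seen. Its medians were 30.7, 55.8 and 43.9 CPM in B16-GFP, B16-IFNA4 and B16-IFNA9 tumors, higher by 0.80 (SE 0.10, adjusted p = 1.09e-07) and 0.43 (SE 0.10, adjusted p = 0.000744), and B16-IFNA9 was below B16-IFNA4 (log2 FC −0.36, adjusted p = 0.0125).

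Of 14 subunits of the anaphase-promoting complex, 12 were lower in B16-IFNA4 and 8 in B16-IFNA9 tumors, but the median log2 FC were −0.44 and −0.24, with Anapc15 (−0.79) and Anapc11 (−0.78) the largest. Between the interferon types 3 of the 14 were higher in B16-IFNA9 tumors, where 10.5% of all genes were. Of 13 cohesin and condensin II genes, 5 were lower and 3 higher in B16-IFNA4 tumors (34.1% and 31.3% of all genes) and 2 were lower and 4 higher in B16-IFNA9 tumors (28.9% and 26.9% of all genes), so the shares against B16-GFP tumors lay near or below those of all genes. In B16-IFNA9 vs B16-IFNA4 tumors 5 of the 13 were higher and 0 lower, against 10.5% and 7.25% of all genes. Cdca5, the sororin that protects cohesion in S and G2 phase, and Esco2, the acetyltransferase that establishes it, fell in B16-IFNA4 tumors (−1.24 and −0.98), whereas the cohesin release factor Wapl, Esco1 and the loader subunit Mau2 were higher in both types (0.24, 0.32 and 0.61 in B16-IFNA4 and 0.30, 0.26 and 0.47 in B16-IFNA9). Among 17 MuvB, E2F and pocket protein genes, 9 were lower and 3 higher in B16-IFNA4 (34.1% and 31.3% of all genes) and 7 lower and 3 higher in B16-IFNA9 tumors (28.9% and 26.9% of all genes), with median log2 FC of −0.36 and 0.05. In B16-IFNA9 vs B16-IFNA4 tumors 5 of the 17 were higher and 0 lower. E2f1 (−0.996 and −0.63) and E2f8 (−0.84 and −0.43) were the largest falls, and Rbl2, the pocket protein p130 of resting cells, rose by 0.64 and 0.57. Rb1 was higher in both, E2f4 was higher in B16-IFNA4 tumors and Lin37 in B16-IFNA9 tumors.

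Genes of DNA replication, the preceding step of the cycle, fell as well. Of 35 tested, 35 were lower in B16-IFNA4 and 32 in B16-IFNA9 tumors, with median log2 FC of −1.23 and −0.70, and 26 were higher in B16-IFNA9 than in B16-IFNA4 tumors (median 0.61). Over all genes, 34.1% and 28.9% were lower in these types, and 10.5% were higher in B16-IFNA9 than in B16-IFNA4 tumors. Rrm2, a subunit of ribonucleotide reductase, had medians of 296, 64.6 and 114 CPM in B16-GFP, B16-IFNA4 and B16-IFNA9 tumors, and log2 FC of −2.40 (SE 0.16, adjusted p = 9.86e-14) and −1.56 (SE 0.15, adjusted p = 1.25e-09). Mcm2, of the replicative helicase, was −1.99 (SE 0.17) and −1.14 (SE 0.16). Side by side, the share of genes lower in B16-IFNA9 tumors was 32 of 35 among the replication genes and 33 of 45 among the mitotic genes, and this difference was not tested. The mitotic share depended on the fit, since with length and GC offsets all mitotic genes but Mki67 were called lower. The replication count with these offsets is not given here.

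**Figure D5:**
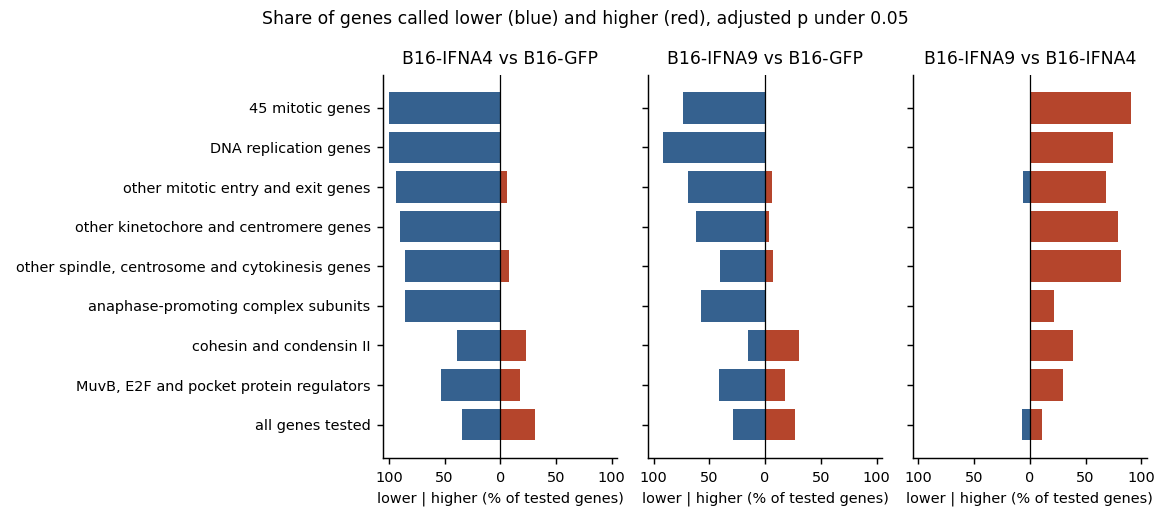
Percentage of tested genes called lower (blue, to the left) and higher (red, to the right) at an adjusted p under 0.05, for the 45 mitotic genes, 7 further lists and all genes tested, in the 3 comparisons. The bars of the 45 genes reach 45, 33 and 41 called genes, while over all genes 34.1% and 28.9% were lower in the first 2 comparisons and 10.5% higher in the third.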

How the data were processed

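Bulk RNA-seq of 30 whole tumors, 10 each of B16-GFP, B16-IFNA4 and B16-IFNA9, was used, with types and replicate numbers from the labels. The authors made TruSeq stranded mRNA libraries, read 50 bases single-end, checked them with FastQC 0.11.3, aligned them with HISAT2 2.0.4 and used summarizeOverlaps for counting. Deposited were raw counts for each gene and tumor, not normalized. The genome is given as mm11 in the study's methods and as mm10 in the submitters' processing notes, and the annotation release, overlap mode and strand setting are not given in the sources used here, so genes that overlap or share sequence are uncertain. Symbols and coordinates are from GENCODE M21 (GRCm38), in which 39495 of the 39676 identifiers were found (36719 under an identical version number).

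The 15926 genes whose mean reached 10 counts were fitted in edgeR 4.0.16 (R 4.3.3) with TMM scaling and the quasi-likelihood test on all 30 tumors, with Benjamini-Hochberg adjustment over these genes. SE is the log2 fold change divided by the square root of its F statistic. Log2 CPM took a prior count of 2. The fit was tested on simulated data. No 2 tumors of a type had counts within sampling noise (chi-square per gene of at least 14.1). The labels call the tumors biological replicates, and totals of 14598517 to 19788383 counts set the precision.

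The 47 genes and all lists were chosen with earlier results of these data known. By rule, full values were given for Mki67, Top2a, Foxm1, Mybl2 and the 2 genes of each role group with the largest difference in B16-IFNA4 vs B16-GFP tumors. Also named by rule, in part with fewer values, were the 12 genes with the smallest adjusted p between the interferon types. From each further list the 2 largest called differences were given. Other genes given values were chosen after these were seen. As alternatives, counts were scaled by library totals or by DESeq2's size factors, or tested in DESeq2 1.42.0, and further fits used filterByExpr, no filter, only the 20 tumors compared, a replicate block, a fold change beyond 1.5, each tumor left out, and, added after seeing the data, length and GC offsets (lowess span 0.3). Promoters are from RefSeq (GRCm38.p6). Figures used matplotlib 3.10.9.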

Additional observations from a re-analysis of the deposited data

Results flagged for a closer look

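Single tumors stood clear of the other 9 of their type in 10 of 138 sets of values searched (45 mitotic genes and the mean over them, in 3 types) (Dixon's gap ratio at its 95% critical value), where chance alone would flag about 6.9. B16-GFP tumor 7 was the highest of its type in 5 of them, with log2 CPM of 6.18 for Melk, 8.10 for Bub3, 6.22 for Cdc20, 7.22 for Nuf2 and 7.00 for Spc25. B16-IFNA9 tumor 10 was the highest in 3, at 6.41 for Bub1b, 6.33 for Mad2l1 and 7.31 for Tpx2. In B16-IFNA4 tumors, tumor 7 was the highest for Aurka at 4.66 and tumor 8 the lowest for Ncaph at 4.16.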

How the results depend on the processing

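Of the 45 mitotic genes, all stayed lower in B16-IFNA4 vs B16-GFP tumors under each alternative but the demand for a fold change beyond 1.5, which left 39. In B16-IFNA9 vs B16-GFP tumors 30 to 44 genes were called under the scalings, filters, tools and offsets tried, and 8 with a fold change beyond 1.5. In B16-IFNA9 vs B16-IFNA4 tumors these counts were 41 to 44, and 4. Over all genes, a fold change beyond 1.5 left 3402, 1924 and 175 of 10412, 8876 and 2833 called genes in the 3 comparisons, and a fit of only the 20 tumors compared gave 4338 in the last. Scaled by library totals, the all-gene medians were 0.09, 0.10 and 0.02, against values within 0.01 of 0 with TMM. The split of calls turned from 4977 higher and 5435 lower to 5413 and 4758 in B16-IFNA4 vs B16-GFP and from 4281 and 4595 to 5052 and 3608 in B16-IFNA9 vs B16-GFP tumors, and went from 1679 and 1154 to 2030 and 916 in B16-IFNA9 vs B16-IFNA4 tumors. Cenpf in B16-IFNA9 vs B16-GFP tumors changed sign with length and GC offsets, from 0.01 to −0.32, and so did Mki67, from 0.05 to −0.17 (not called in either fit), and the cause was not tested.

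Leaving out each tumor in turn gave 45 in every case, 30 (without B16-GFP replicate 7) to 38 (without B16-IFNA9 replicate 10) and 41 to 44 mitotic genes called, 9941 to 10554, 8407 to 9194 and 2098 to 3797 genes in all, and 42 to 43, 2 to 13 and 12 to 31 mitotic genes without overlap between single tumors.

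The labels do not say whether equally numbered tumors were handled together, and the tumors were treated as unpaired. Deviations of equally numbered tumors correlated between −0.27 and 0.30, over 0.1 in 2, 2 and 0 of 10 numbers, and a tumor correlated best with its own number in 1, 1 and 0 of 10. Such correlations cannot settle whether the numbers share a batch. With the replicate block, 45, 36 and 41 mitotic genes and 10249, 8626 and 2535 genes in all were called.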
